A study of Mus musculus with 3 samples.

Results

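The vascular miRNAs miR-126a, miR-143 and miR-145a were followed through the first days of skeletal muscle regeneration. Both arms of each hairpin were taken by name from the miRNA tables, which gave 6 mature miRNAs out of 1138 listed, and all 6 were listed for every library. miRNA-Seq was performed on a shin muscle, the tibialis anterior (TA), of wildtype C57BL/6 mice aged 10 weeks. Day 0 is uninjured muscle, and days 1 and 3 follow damage by injected cardiotoxin (CTX), which comes from cobra venom and kills myofibers. The protocol also names a saline control injection, without saying whether day 0 muscle received it. RNA from 4 samples was pooled into 1 library at each time point. There were therefore 3 libraries and no replicates, so that no difference described here has a replicate check and nothing is known here of how mice vary.

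miRNAs are short RNAs cut from a hairpin precursor, and each arm of the hairpin can be loaded onto an Argonaute protein and repress mRNAs that match its seed, bases 2 to 8 from the 5′ end. miR-126 is made in endothelial cells, the lining of blood vessels, from an intron of Egfl7. Its 3p arm represses Spred1 and Pik3r2, inhibitors of VEGF signalling, and so helps to maintain vessel integrity and angiogenesis. miR-143 and miR-145 are made together in smooth muscle cells and pericytes of the vessel wall under the control of serum response factor and myocardin, and favour the contractile state, in part by repressing Klf4, Klf5 and Elk1. In muscle, these miRNAs are read as markers of the capillaries and small vessels that lie between myofibers and regrow during repair.

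The seed of the most abundant of the 6, miR-126a-3p, is given in capitals in its mature sequence from RefSeq, with that of miR-126b-5p, which is annotated on the opposite strand of the same locus and bears on whose reads are counted.
mmu-miR-126a-3p: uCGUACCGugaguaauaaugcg
mmu-miR-126b-5p: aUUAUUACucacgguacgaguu
miR-126a-3p has 22 nucleotides and lies on chromosome 2 of GRCm38.p6 from 26591402 to 26591423 on the plus strand. miR-126b-5p lies from 26591399 to 26591420 on the minus strand, so that the positions overlap by 19 bases and the sequences are complementary there. Among the 1679 mature names in the RefSeq table, no other carries the seed of miR-126a-3p. The hairpin Mir126a covers 73 bases of chromosome 2, from 26591357 to 26591429, in Egfl7. In the GENCODE M21 annotation it lies in an intron of 8 Egfl7 transcripts and overlaps an exon of 1, out of 19, and it also lies in an intron of the overlapping gene Gm20532.

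Reads of the opposite strand were few. miR-126b-5p had 0, 0 and 2 reads for days 0, 1 and 3, where a count of 0 allows up to 0.353 CPM on day 0 and 0.467 CPM on day 1 (3 reads). CPM stands for counts per 1000000 reads of the library. miR-126b-3p had 5, 19 and 16 reads. It matches miR-126a-3p at 17 of 22 positions when the sequences are set side by side without gaps at an offset of 1 base, and whether such reads came from its own strand was not tested.

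The smooth muscle hairpins lie near each other on chromosome 18 of GRCm38, on the minus strand, with Mir145a from 61647825 to 61647894 and Mir143 from 61649196 to 61649258. The gap between them is 1301 bases. GENCODE M21 places both outside the noncoding RNA Carmn, whose 3′ end lies 366 bases from Mir143. The Carmn gene of RefSeq, from 61645878 to 61665538, spans both.

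The reads summed to between 6421056 (day 1) and 9795076 (day 3) per library, and between 784 and 987 miRNAs had at least 1 read. The muscle label was checked with 7 myofiber miRNAs, all of which were detected in every library. Together they accounted for 27.4%, 9.17% and 27.8% of the reads on days 0, 1 and 3. miR-1a-3p, the main miRNA of mature myofibers, was at 233587, 73841 and 88096 CPM on these days. miR-206-3p, a miRNA of regenerating muscle, was at 12384, 4781 and 180001 CPM. Since CPM are shares of a library, every other level moves with these miRNAs, and each change below is given with its scaling.

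The 6 vascular miRNAs took 9.44% of all reads in uninjured muscle, 19.7% a day after CTX and 8.41% on day 3. Nearly all of these reads were miR-126a-3p and miR-143-3p. The order of the levels was the same in each of the 3 libraries, from miR-126a-3p through miR-143-3p, miR-126a-5p, miR-145a-5p and miR-145a-3p to miR-143-5p, and the 95% counting intervals of neighbours in that order did not overlap. In CPM all 6 were highest on day 1, whereas with TMM or median-of-ratios factors, described below, miR-143-3p and miR-145a-3p were highest on day 0. In bulk tissue, a change in the number of cells of a type and a change in their RNA per cell cannot be told apart.

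**Figure D1:**
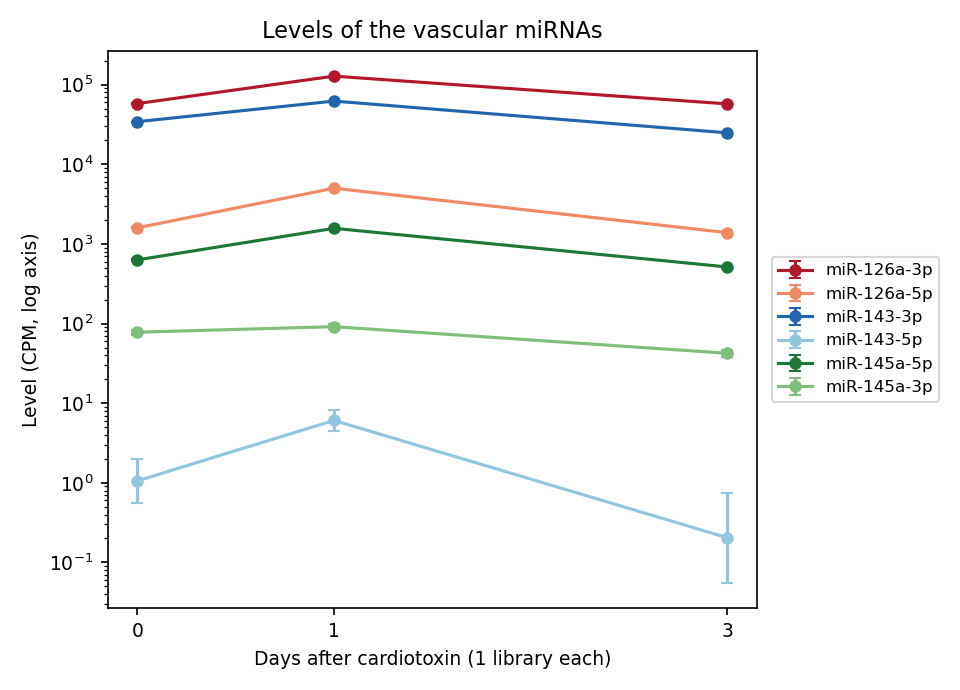
Level of each vascular miRNA in CPM (log axis) against days after CTX, 1 library per time point, with Wilson 95% intervals of the share of reads. Every line peaks on day 1, and only miR-143-5p, with 2 to 39 reads, has an interval wide enough to see well.

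mmu-miR-126a-3p, the endothelial guide arm, had 492044, 821327 and 561735 reads on days 0, 1 and 3. In CPM these were 57836 for uninjured muscle (Wilson 95% interval 57679 to 57993), 127912 a day after injury (127653 to 128170) and 57349 for day 3 (57203 to 57495). By abundance among all miRNAs it ranked 5, then 2, then 4. In CPM the day 1 library stood apart and days 0 and 3 were nearly level, whereas with TMM factors the log2 ratio to day 0 was 0.20 on day 1 and -0.94 on day 3.

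mmu-miR-126a-5p, the other arm, which is known to repress Dlk1 in endothelial cells, had 13535, 32177 and 13551 reads. The corresponding levels were 1591 CPM (1564 to 1618), 5011 CPM (4957 to 5066) and 1383 CPM (1360 to 1407). As for the 3p arm, only day 1 was high in CPM.

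mmu-miR-143-3p, the main arm of the smooth muscle hairpin, had 291626, 399322 and 243199 reads, at levels of 34278 CPM (34156 to 34401), 62189 CPM (62003 to 62376) and 24829 CPM (24731 to 24926), with abundance ranks of 6, 4 and 11. Here day 3 was the lowest library. mmu-miR-143-5p, its seldom retained partner arm, had 9, 39 and 2 reads, or 1.06 CPM (0.557 to 2.01), 6.07 CPM (4.44 to 8.30) and 0.204 CPM (0.0560 to 0.745). The count on day 3 was under the floor of 3 reads.

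mmu-miR-145a-5p, the main arm of its hairpin, had 5362, 10085 and 5030 reads, or 630.3 CPM (613.6 to 647.4), 1571 CPM (1540 to 1602) and 513.5 CPM (499.5 to 527.9). mmu-miR-145a-3p had 662, 587 and 415 reads, or 77.8 CPM (72.1 to 84.0), 91.4 CPM (84.3 to 99.1) and 42.4 CPM (38.5 to 46.6). In CPM the 5p arm was highest on day 1, whereas the 3p arm was close to level between days 0 and 1 and lowest on day 3. These intervals, like all in this section, cover counting error only, because each day has 1 library. They take reads as independent molecules, which PCR copies are not, so they may be too narrow even for that error.

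Levels on day 1 were first compared with uninjured muscle. miR-126a-3p was 2.21-fold higher (exact conditional binomial 95% interval 2.20 to 2.22), and miR-126a-5p 3.15-fold higher (3.09 to 3.21). miR-145a-5p was 2.49-fold higher (2.41 to 2.58). miR-143-5p was 5.74-fold higher (2.74 to 13.5) on its few reads. The ratio was 1.81 for miR-143-3p (1.81 to 1.82) and 1.17 for miR-145a-3p (1.05 to 1.31). A fold of 2 with at least 10 reads in 1 of the libraries was used as the threshold, without a test.

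At this threshold, 4 of 6 vascular miRNAs were higher and 0 were lower on day 1, beside 55.3% of the 532 miRNAs compared that were higher and 12.0% that were lower. miR-143-5p met the minimum of reads only through day 1, where it is high, and without it the count was 3 of 5, with a median log2 ratio of 1.15. The share of vascular miRNAs past the threshold was thus near that of all miRNAs. The median log2 ratio was 1.23 for the 6 and 1.28 for all 532, with 3 of the 6 above that median and 3 below it. CPM were higher at large on day 1. Without the myofiber list in the totals, the median log2 ratio of all miRNAs was 0.95 instead of 1.28. Relative to the median miRNA, the log2 ratio was 0.38 for miR-126a-5p, 0.04 for miR-145a-5p, -0.13 for miR-126a-3p and -0.42 for miR-143-3p. The rarer arms lay farther from it, at -1.04 for miR-145a-3p and 1.24 for miR-143-5p.

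Scaling decided much of the day 1 comparison. TMM factors (edgeR) shifted all log2 ratios by -0.94 and median-of-ratios factors (DESeq2) by -1.04. With TMM, the log2 ratio was 0.20 for miR-126a-3p, 0.71 for miR-126a-5p, 0.37 for miR-145a-5p and 1.58 for miR-143-5p, all still above 0, and 35.2% of all miRNAs were higher and 24.2% lower. The sign turned for miR-143-3p, from 0.86 with library totals to -0.08 with TMM and -0.18 with median-of-ratios factors. It also turned for miR-145a-3p, from 0.23 to -0.71 with TMM, and was below 0 in each setting other than library totals and the pseudocount. Whether miR-143-3p and miR-145a-3p were above or below their uninjured levels on day 1 therefore depended on the scaling. The other 4, both arms of endothelial miR-126a with miR-145a-5p and miR-143-5p, were above them under each of the 7 settings compared. For miR-126a-3p, however, the log2 ratio was only 0.10 with median-of-ratios factors and 0.07 with the deposited score (described below). Of the 4, miR-143-5p met the minimum of reads only through day 1, where it is high, so its place among them says little.

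**Figure D2:**
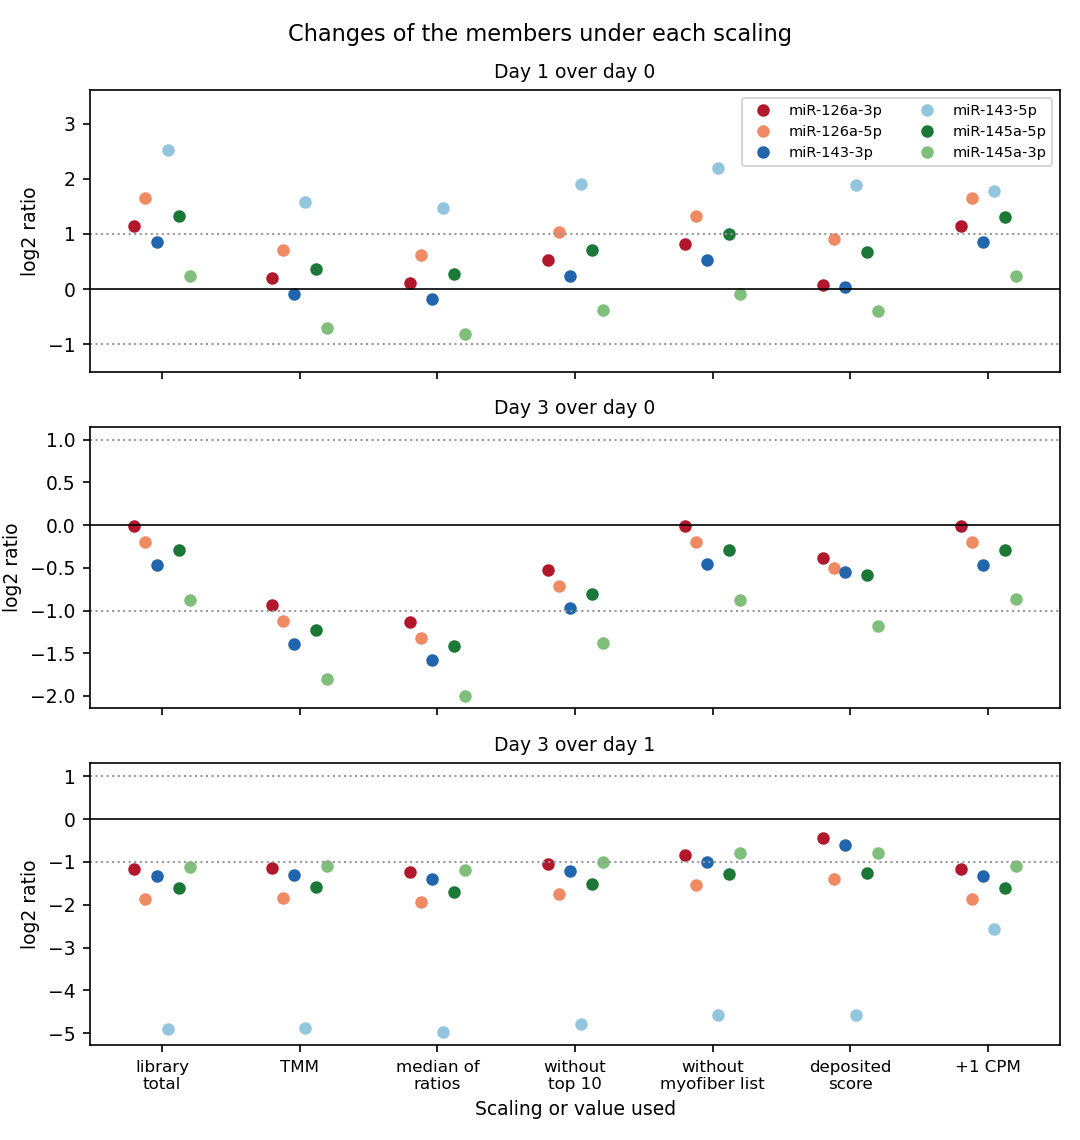
Log2 ratio of each vascular miRNA (points) in the 3 comparisons under 7 settings, with solid lines at 0 and dotted lines at a fold of 2. Day 1 over day 0 straddles 0 once libraries are rescaled, day 3 over day 0 has no point above 0, and day 3 over day 1 is below 0 throughout.

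On day 3, the vascular miRNAs were at or below their uninjured levels. miR-126a-3p was at 0.992 times its day 0 level (0.988 to 0.995) and miR-126a-5p at 0.870 times (0.849 to 0.891). miR-145a-5p was at 0.815 times (0.784 to 0.847), miR-143-3p at 0.724 times (0.720 to 0.728) and miR-145a-3p at 0.544 times (0.480 to 0.617). miR-143-5p had 9 and 2 reads, fewer than the minimum for this comparison, with a ratio of 0.193 (0.0203 to 0.933).

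None of the 5 vascular miRNAs compared on day 3 passed the threshold in either direction, whereas 58.5% of the 569 miRNAs compared were higher and 10.0% were lower. The median log2 ratio was -0.30 for the 5 and 1.47 for all 569, and all 5 were below the median of all. miR-126a-3p ranked 439 of 569 from the highest ratio, miR-143-3p 475 and miR-145a-3p 503. All 5 log2 ratios were below 0 under each of the 7 settings. That of miR-126a-3p was nearly level with day 0, at -0.012 with library totals and -0.006 without the myofiber list. TMM factors shifted the 5 log2 ratios by -0.93. They were then -0.94 for miR-126a-3p, -1.13 for miR-126a-5p, -1.39 for miR-143-3p, -1.22 for miR-145a-5p and -1.80 for miR-145a-3p. The number past the threshold was then 4 of 5 with TMM and 5 of 5 with median-of-ratios factors, beside 22.1% and 24.8% of all miRNAs lower and 40.6% and 36.6% higher.

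Between days 1 and 3, the levels of all 6 were lower by more than 2-fold. miR-126a-3p was 2.23-fold lower on day 3 than on day 1 (2.22 to 2.24) and miR-126a-5p 3.62-fold lower (3.55 to 3.70). miR-143-3p was 2.50-fold lower (2.49 to 2.52), miR-145a-5p 3.06-fold lower (2.96 to 3.16) and miR-145a-3p 2.16-fold lower (1.90 to 2.45). miR-143-5p, at 39 and 2 reads, was 29.7-fold lower with an interval from 7.70 to 254.3. Thus 6 of 6 were past the threshold, beside 17.7% of the 583 miRNAs compared that were lower and 25.0% that were higher. Here too miR-143-5p was compared only through its reads on day 1, so that its being lower was set by the minimum, and without it the count was 5 of 5, with a median log2 ratio of -1.32. The 6 are arms of 3 hairpins, so they are not 6 independent cases, and this comparison shares a library with each of the others.

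The median log2 ratio between these days was -1.47 for the 6 and 0.02 for all 583 miRNAs. TMM factors moved it little, by 0.02, since both injured libraries were scaled nearly alike. All 6 were below 0 under each of the 7 settings. Leaving the myofiber list out of the totals gave a log2 ratio of -0.83 for miR-126a-3p, -0.99 for miR-143-3p and -0.78 for miR-145a-3p, so that 3 of 6 were past the threshold, beside 12.5% of all miRNAs lower and 30.7% higher. With the deposited score these were -0.45, -0.59 and -0.80, and 3 of 6 were again past the threshold, beside 12.3% lower and 29.8% higher. In both settings miR-143-5p, compared only through day 1, was among the 3.

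**Figure D3:**
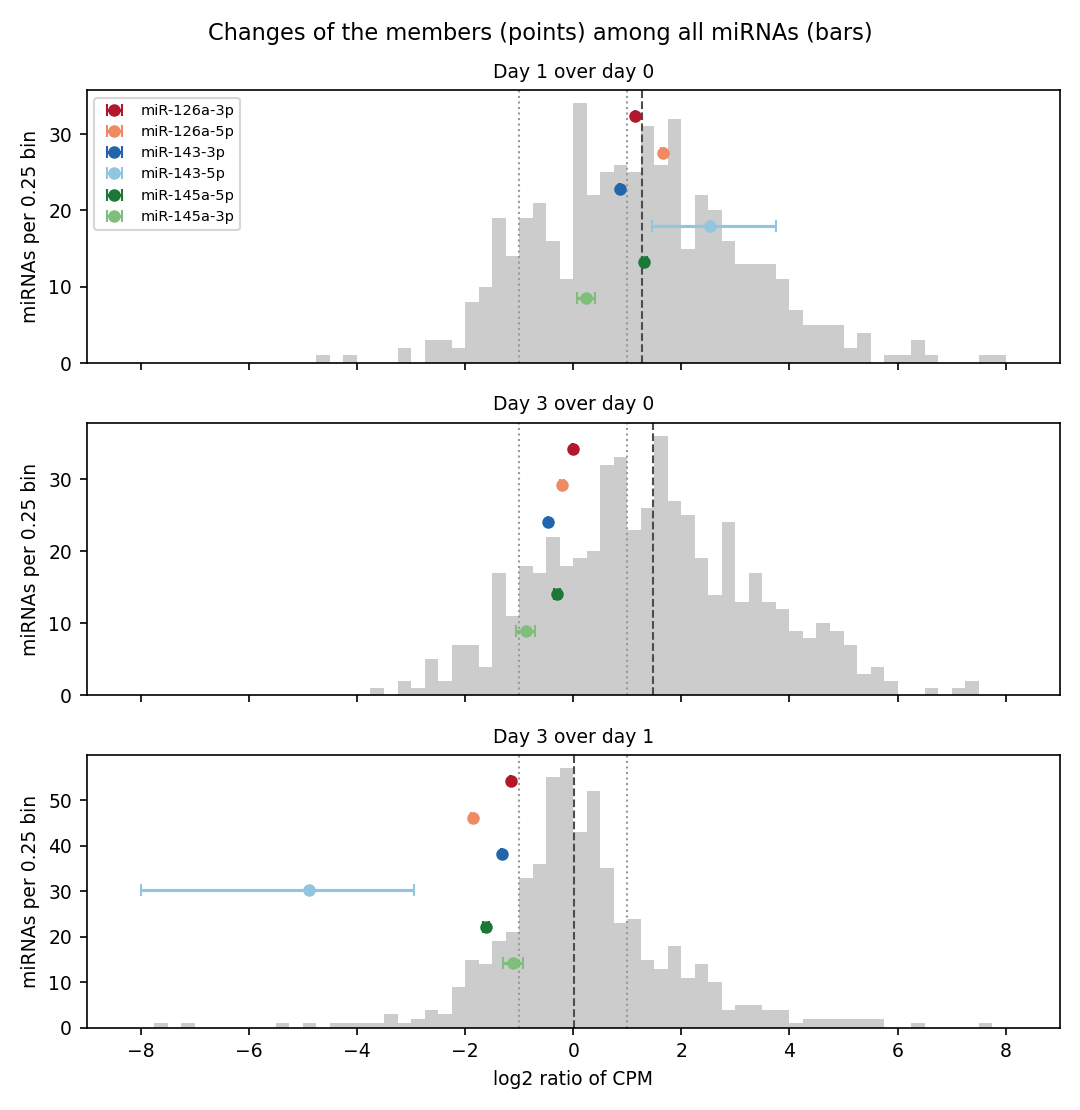
Log2 ratio of CPM of the vascular miRNAs (points with exact 95% counting intervals, spread in height only for legibility) over the distribution of all miRNAs with at least 10 reads in 1 of the 2 libraries (bars, leaving out those at 0 reads in 1 library). The dashed line is the median of all miRNAs and the dotted lines a fold of 2. The points lie around the median for day 1 over day 0 and to its left in both comparisons with day 3.

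Endothelial miR-126a was then set against smooth muscle miR-143 and miR-145a within each library, a ratio that no scaling of libraries can change, although the choice of deposited value can. Summed over all arms, miR-126a had 1.70 reads for each read of miR-143 and miR-145a in uninjured muscle (Wald 95% interval 1.69 to 1.71), 2.08 a day after injury (2.07 to 2.09) and 2.31 for day 3 (2.30 to 2.32). The ratio was 1.23 times the day 0 value on day 1 (1.22 to 1.23) and 1.36 times on day 3 (1.35 to 1.37). In the other deposited value, a score of unstated making, the ratios were 1.24, 1.32 and 1.39. The counting intervals of the 3 days do not overlap in reads. With 1 library per day, the differences cannot be set against the spread between pools of mice or between preparations.

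The sums were carried by miR-126a-3p and miR-143-3p, whose own ratio was 1.69, 2.06 and 2.31 in reads and 1.19, 1.21 and 1.34 in the score, where the day 1 ratio was 1.02 times that of day 0. Other arms gave other courses on day 1. miR-126a-3p over miR-145a-5p was 91.8, 81.4 and 111.7, that is, 0.887 times the day 0 value on day 1 (0.858 to 0.918) and 1.22 times on day 3 (1.17 to 1.26). In the score it was 24.5, 16.2 and 28.3. miR-126a-5p over miR-143-3p was 0.0464, 0.0806 and 0.0557, or 1.74 times the day 0 value on day 1 (1.70 to 1.77) and 1.20 times on day 3 (1.17 to 1.23). miR-126a-5p over miR-145a-5p was 2.52, 3.19 and 2.69. On day 3 all 4 arm pairs were above their day 0 ratio, by 1.07 to 1.37 times, whereas on day 1 only 3 of the 4 were above it and miR-126a-3p over miR-145a-5p was below.

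miR-143-3p and miR-145a-5p, from neighbouring hairpins, did not keep a fixed ratio. There were 54.4 reads of miR-143-3p for each read of miR-145a-5p before injury (52.9 to 55.9), 39.6 a day later (38.8 to 40.4) and 48.3 at the last time point (47.0 to 49.7). The day 1 ratio was 0.728 times that of day 0 (0.704 to 0.753), as the CPM ratio of miR-145a-5p given above was the larger. In the deposited score the ratios were 20.6, 13.4 and 21.1, so that day 3 was slightly above day 0 rather than below it.

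**Figure D4:**
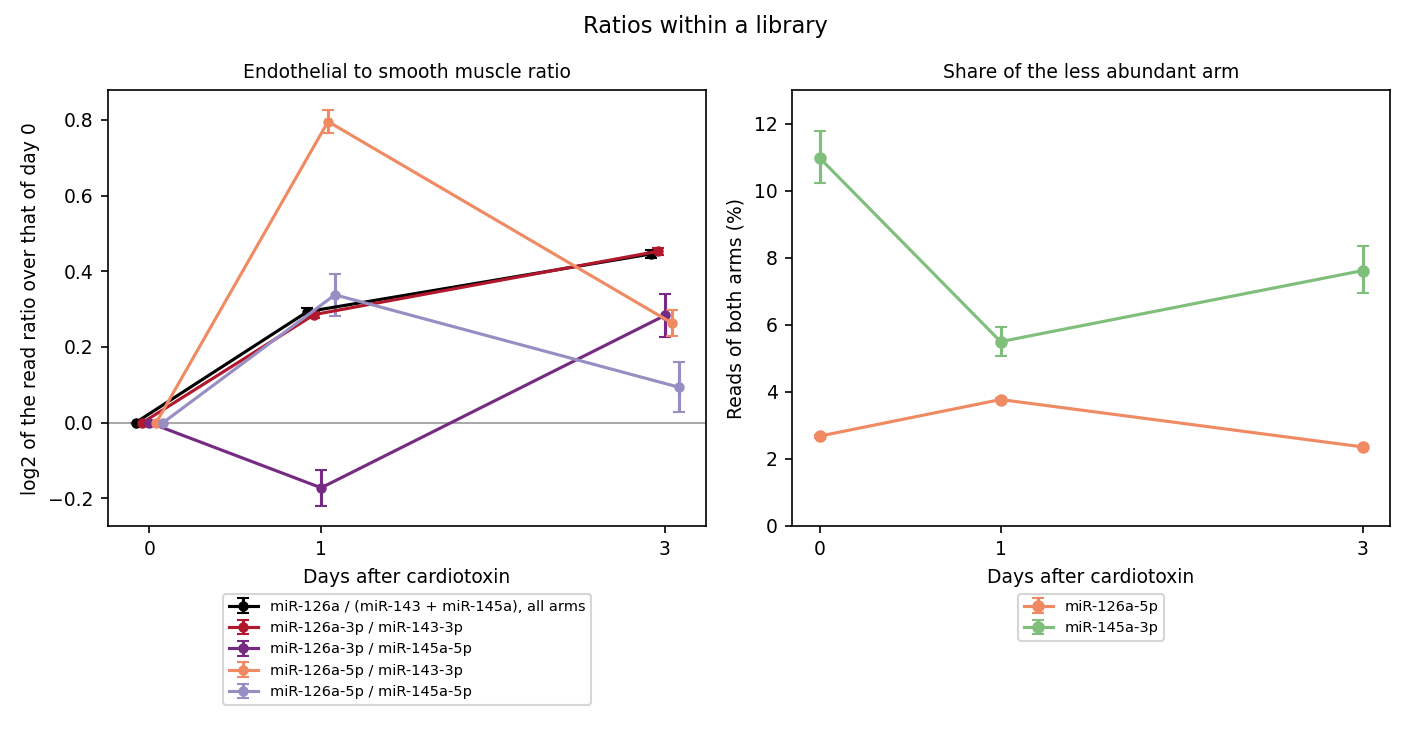
Left, log2 of the read ratio of miR-126a to miR-143 or miR-145a relative to day 0, for the sums and for 4 arm pairs, with Wald 95% intervals. Right, the share of the less abundant arm among the reads of its hairpin, with Wilson 95% intervals. The sum and the main arm pair are above 0 on both days, miR-126a-3p over miR-145a-5p dips on day 1, and miR-145a-3p loses share on day 1 while miR-126a-5p gains.

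The balance of arms does not depend on the scaling of libraries either, but it does depend on which deposited value is used. miR-126a-5p made up 2.68% of miR-126a reads before injury (Wilson 95% interval 2.63 to 2.72), 3.77% a day later (3.73 to 3.81) and 2.36% in the day 3 library (2.32 to 2.40). In the deposited score these shares were 9.02%, 15.0% and 8.35%. miR-145a-3p made up 11.0% (10.2 to 11.8), 5.50% (5.08 to 5.95) and 7.62% (6.95 to 8.36) of miR-145a reads. miR-143-5p never reached more than 0.00977% of miR-143 reads (0.00714 to 0.0133, on day 1). The less abundant arm thus gained share on day 1 for miR-126a and lost share for miR-145a.

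Such shifts were common in these libraries. On the log2 scale, the share of the minor arm changed by 0.49 for miR-126a and by -0.999 for miR-145a between days 0 and 1. The set compared was 121 hairpins with at least 100 reads over both arms in each library. Each arm also had at least 10 reads over the 3 libraries together, and the minor arm was detected on both days. In this set, the median size of the change between days 0 and 1 was 0.71. The change was larger than that of miR-126a for 77 hairpins and larger than that of miR-145a for 43.

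Markers of other cells also differed between the libraries. The 7 leukocyte miRNAs accounted for 0.549%, 2.15% and 1.00% of the reads, and miR-150-5p alone had 40266 of the 46735 such reads in uninjured muscle. No miRNA of the marker lists was at 0 in any library. Erythroid miR-451a and miR-144-3p, which come with red blood cells, held 0.714%, 2.53% and 1.26%. The 4 stromal miRNAs of the miR-199 and miR-214 families held 0.205%, 0.374% and 0.628%, and 6 epithelial miRNAs held 0.00266%, 0.0210% and 0.0122%. As shares of reads, the erythroid, leukocyte and epithelial lists, like the vascular miRNAs, were highest on day 1. The stromal list was highest on day 3.

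Reads of miR-126a numbered 0.217 for each read of the myofiber list before injury, 1.45 a day later and 0.212 by day 3. For miR-143 and miR-145a together these ratios were 0.127, 0.696 and 0.0915. miR-206-3p alone had 105359 of the 2334597 reads of this list on day 0 and 1763128 of the 2718448 on day 3. Of the 7 list members, 4 were at least 2-fold lower on day 3 than on day 0 and 1 was higher. The day 3 ratios thus rest largely on miR-206-3p. Ratios without it were not computed, so neither a level nor a lower ratio on day 3 can be read for mature myofibers. Against the leukocyte list, miR-126a was at 10.8, 6.18 and 5.87 reads per read. Without miR-150-5p, left out after the data were seen, the other 6 leukocyte miRNAs held 0.0760%, 1.32% and 0.681% of the reads, and miR-126a was at 78.2, 10.1 and 8.63 reads per read. For miR-143 and miR-145a, the ratios were 6.37, 2.97 and 2.54 with it and 46.0, 4.84 and 3.73 without it. Against the erythroid list, miR-126a was at 8.32, 5.25 and 4.68 reads per read, and against the stromal list at 29.0, 35.5 and 9.35. Myofiber, blood and leukocyte reads all differed between the libraries, and their part in the levels of the vascular miRNAs was not tested.

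A list of 22 other miRNAs linked to angiogenesis was compared in the same way. On day 1, 15 of the 22 were at least 2-fold higher and 0 lower, beside 55.3% and 12.0% of all miRNAs, with a median log2 ratio of 1.81 beside 1.28 for all miRNAs. On day 3, 14 were higher and 0 lower, beside 58.5% and 10.0%, with a median of 1.35 beside 1.47. With TMM factors, 10 were higher and 0 lower on day 1, beside 35.2% and 24.2% of all miRNAs, and 9 were higher and 1 lower on day 3, beside 40.6% and 22.1%. Of those higher on day 1, the 3 with the most reads were miR-23a-3p with 3730, 18522 and 9831 CPM, miR-24-3p with 4812, 15913 and 10136 CPM, and miR-27a-3p with 4541, 13377 and 6055 CPM. miR-23a and miR-27a have near-identical copies in the miR-23b cluster, among which reads could be divided, and miR-24-3p is made from both clusters. miR-221-3p and miR-222-3p, which repress the receptor Kit in endothelial cells, were 10.9-fold and 12.7-fold higher on day 1 and 11.0-fold and 19.4-fold higher on day 3. The share of this list past the threshold on day 3 was near the 58.5% of all miRNAs, whereas 0 of the vascular miRNAs were higher.

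Of 14 miRNAs linked to the smooth muscle phenotype, 13 had enough reads to compare. miR-10a-5p, miR-24-3p, miR-221-3p and miR-222-3p are also on the angiogenesis list, so the lists are not independent. With library totals, all of these shared miRNAs were past the threshold on day 1, and all but miR-10a-5p on day 3. On day 1, 8 were higher and 0 lower, beside 55.3% and 12.0% of all miRNAs, with a median log2 ratio of 1.41. On day 3, 6 were higher and 2 lower, beside 58.5% and 10.0%, with a median of 0.89 that turned to -0.03 with TMM factors. With TMM factors, 3 were higher and 2 lower on day 1, and 3 were higher and 4 lower on day 3, beside the shares of all miRNAs given above for that scaling. miR-21a-5p, which is induced in proliferating vessel wall cells and in many other injured cells, had 3865, 19120 and 52565 CPM. The 2 lower on day 3 were miR-100-5p, with 7716, 4958 and 3437 CPM, and miR-204-5p, with 665.2, 916.5 and 201.2 CPM. miR-490-3p had 0, 1 and 0 reads and was not compared.

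The miRNAs nearest in pattern to miR-126a-3p and miR-143-3p were then found among 216 miRNAs with at least 100 reads in each library, by the Euclidean distance between pairs of log2 ratios (day 1 and day 3 over day 0). The measure rests on 3 libraries. Nearest to miR-126a-3p was miR-10b-5p, at a distance of 0.23, with 2656, 5014 and 2622 CPM. miR-145a-5p followed at 0.33, miR-361-5p at 0.38, miR-10a-5p at 0.40 and miR-139-3p at 0.43. miR-10a and miR-10b, from the Hox clusters, differ little in sequence, so reads could be divided between them. The other arm, miR-126a-5p, was in place 12 at 0.54, behind miR-143-3p in place 10, also at 0.54.

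Nearest to miR-143-3p was miR-150-5p, a miRNA of mature lymphocytes, at 0.11, with 4733, 8307 and 3197 CPM. miR-139-3p followed at 0.12, miR-26b-5p at 0.13, miR-139-5p at 0.19 and miR-181c-5p at 0.21. miR-145a-5p was in place 11 at 0.49 and miR-126a-3p in place 15 at 0.54. Both arms of miR-139, which is cut from an intron of Pde2a, were among these 5, with 1423, 2803 and 933.9 CPM for miR-139-5p.

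**Figure D5:**
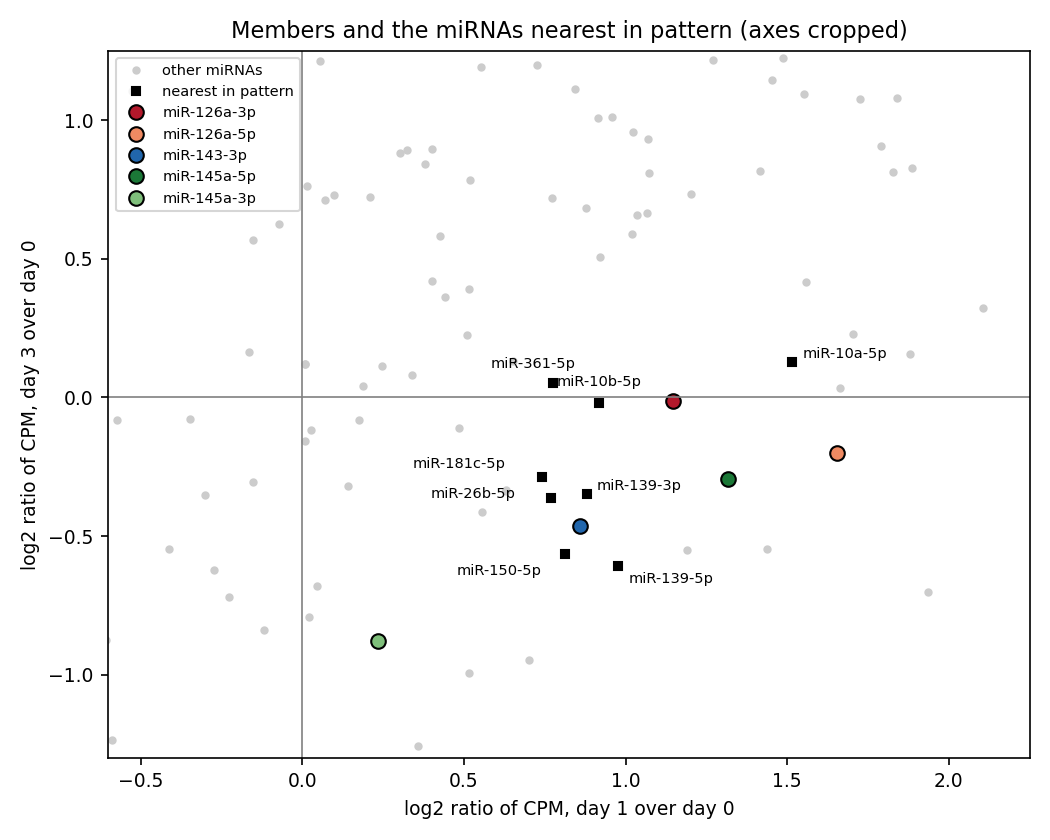
Log2 ratio of CPM on day 3 against that on day 1, both over day 0, for miRNAs with at least 100 reads in each library. The axes are cropped to 93 of the 216. The 5 vascular miRNAs with enough reads lie right of 0 and at or below 0 on the day 3 axis, with the nearest miRNAs (squares) beside miR-126a-3p and miR-143-3p.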

How the data were processed

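Small RNAs of 18 to 30 nucleotides from pooled TA muscle RNA were read on a BGISEQ instrument, and the build given for the authors' files is GRCm38.p6. The submitters' processing notes name HISAT and Bowtie2. How reads with several matches were counted, and whether strand was used, are not given in the sources used here. The authors deposited for each mature miRNA a read count, without normalization, and a further value, treated as a score because how the authors made it is not stated. CPM were computed from the counts and the total of each library, with Wilson 95% intervals. Ratios of CPM carry exact conditional binomial intervals and ratios of read ratios Wald intervals. The code was tested on simulated reads. No test of the conditions was possible with 1 library per time point, so no p-values are given. Alternatives were edgeR 4.0.16 TMM factors, DESeq2 1.42.0 median-of-ratios factors, totals without the 10 most abundant miRNAs or without the myofiber list, the score scaled to its total, a pseudocount of 1 CPM, folds of 1.5 and 4, other minimums of reads, and the fold combined with a 2-sided Fisher's exact test at an adjusted p of 0.001 or less.

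The miRNAs named were the 6 vascular ones, the opposite-strand miR-126b, the 5 nearest in pattern, and up to 4 members with the most reads of each list and direction. miR-490-3p was named besides, as a list member with too few reads to compare. miR-221-3p and miR-222-3p, the counts without miR-143-5p and the ratios without miR-150-5p were chosen after values were seen. So were the list counts by scaling and the arm shares of other hairpins. The vascular miRNAs and all lists were chosen with earlier results of these data known. Mature sequences were looked up in the RefSeq table (GRCm38.p6) with chromosome 18, and so miR-143 and miR-145a, left out. They matched 1 of the 6. The positions of mature miRNAs and the wider Carmn span are also from RefSeq, and the other positions are from GENCODE M21. Computation used R 4.3.3 and Python 3.11.15 with scipy 1.17.1, pandas 2.3.3 and numpy 2.4.6, and plots matplotlib 3.10.9.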

Additional observations from a re-analysis of the deposited data

How the results depend on the processing

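No paired analysis was possible because each time point has 1 library. The number of vascular miRNAs at least 2-fold higher on day 1 was 4 with library totals. It was 2 without the 10 most abundant miRNAs or without the myofiber list. It was 1 with the deposited score, a fold of 4 or either TMM or median-of-ratios factors. That 1 was miR-143-5p in each case, which was also among the 2 and met the minimum of reads only through day 1. The share of all miRNAs higher was 55.3% with totals, 35.2% with TMM, 33.1% with median-of-ratios factors, 41.2% with the score, 42.7% without the 10 most abundant, 48.9% without the myofiber list and 33.8% at a fold of 4. The number at least 2-fold lower on day 3 than on day 0 was 0 with library totals, 4 after TMM scaling, 5 after median-of-ratios scaling, and 1 without the 10 most abundant, with the score or at a fold of 1.5. The share of all miRNAs lower was 10.0% with totals, 22.1% with TMM, 24.8% with median-of-ratios factors, 16.3% without the 10 most abundant, 13.9% with the score and 15.3% at a fold of 1.5. The number lower on day 3 than on day 1 was 6. It was 3 without the myofiber list or with the score, and 1 at a fold of 4. miR-143-5p, compared only through day 1, was that 1 and was among the 3 in each case. Of all miRNAs, 17.7% were lower with totals, 12.5% without the myofiber list, 12.3% with the score and 5.83% at a fold of 4. A pseudocount of 1 CPM left each of these counts as it was. So did adding Fisher's exact test, which takes reads as independent molecules and with 1 library per day says nothing about stability. Other minimums of reads moved the share of all miRNAs past the threshold by less than 1.5 times.

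The log2 change of the miR-126a to miR-143 and miR-145a ratio was 0.29 on day 1, 0.45 on day 3 and 0.15 between days 1 and 3. With the score it was 0.089, 0.163 and 0.074. For miR-126a-3p over miR-145a-5p it was -0.172, 0.283 and 0.456, for miR-126a-5p over miR-143-3p 0.796, 0.264 and -0.532, and for miR-126a-3p over miR-143-3p 0.167 between days 1 and 3. The log2 change of miR-143-3p over miR-145a-5p was -0.46, -0.17 and 0.29, and with the score -0.624, 0.037 and 0.661. In the score, the share of miR-126a-5p was 9.02%, 15.0% and 8.35%, and that of miR-143-5p 0.00855% and 0.0308% on days 0 and 1. The score is far below the reads of miR-126a-3p, miR-143-3p and other miRNAs of like depth. With 1 library per day the spread between libraries is unknown, and miR-143-5p and miR-126b also rest on few reads.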

Other observations

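The deposited score was a whole number, never above the read count, for all 1138 miRNAs in each library. The score of miR-126a-3p was 125421, 153484 and 137322 for days 0, 1 and 3, or 25.5%, 18.7% and 24.4% of its reads. That of miR-143-3p was 105282, 126736 and 102560, or 36.1%, 31.7% and 42.2%. Other miRNAs within 1.5 times the reads of these arms on day 1 were at similar percentages, with 18.6% for the 1 near miR-126a-3p and 28.2% to 33.6% for the 3 near miR-143-3p. On day 0, the 1 near miR-126a-3p was at 22.8%, and the 3 near miR-143-3p were at 42.3% to 45.6%, all above it. On day 3, the 2 near miR-126a-3p were at 26.0% to 31.2%, above it, and the 9 near miR-143-3p at 34.4% to 51.3%. The rarer arms kept more of their reads, with 84.4% to 92.4% for miR-126a-5p, 94.1% to 96.5% for miR-145a-5p and 98.9% to 99.5% for miR-145a-3p. In both abundant arms the percentage was lowest on day 1, the library where their reads were most numerous. On this score, scaled to its total, miR-126a-3p on day 1 was at a log2 ratio of 0.07 to day 0 and miR-143-3p at 0.04, whereas miR-126a-5p was at 0.90 and miR-145a-5p at 0.67.

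miR-150-5p, one of the leukocyte miRNAs, had a course unlike that of miR-223-3p in the same list. miR-223-3p, a miRNA of myeloid cells, was 79.9-fold higher on day 1 and 19.4-fold higher on day 3. With library totals, miR-150-5p was at 1.76 times its day 0 level on day 1 and 0.675 times on day 3, near the 1.81 and 0.724 of miR-143-3p. TMM factors shift each day 1 log2 ratio by -0.94, more than the 0.81 of miR-150-5p, so that its sign on day 1 turns.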
